A study of Mus musculus with 32 samples.

Results

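The forebrain (Fb) of Cdh double knockout embryos with a cranial defect (DKO_CD) was compared with the wild-type (WT) Fb in 3 DKO_CD and 6 WT libraries out of 32 in the series. Expression is given in FPKM (fragments counted on a gene, scaled to its exon length and to all mapped fragments of the library), and genes that averaged 1 FPKM or more over these 9 libraries were tested, which left 13240 of 48576 gene identifiers. The 3 DKO_CD libraries are those whose column headings name DKO6-8 replicates 1 to 3. The embryos were of the B6C3F1 strain at E9.5, and total RNA of the Fb and of the midbrain (Mb) was sequenced separately. The series also holds exencephalic double (DKO_Ex) and Cdh6/8/11 triple (TKO_Ex) knockouts, used here only for comparison. WT embryos came from WT matings and mutants from matings of Cdh6/8/11 triple heterozygotes, so parentage and genotype cannot be told apart. Each knockout allele carries a short frameshift deletion in the exon that holds the start codon, so the fragment level of the targeted gene need not fall. No source states whether a library is a single embryo, and the p-values measure the spread between these libraries.

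The files and the records go against each other for this group. The files headed DKO6-8 stand in the records of the exencephalic Cdh8/11 knockout, and those headed DKO8-11 stand in the records of the Cdh6/8 knockout with the cranial defect. The headings were followed. Grouping by record instead exchanges the DKO_CD and DKO_Ex libraries, so the values given here for DKO_Ex against WT are then those of the cranial defect group, and they are named as such where the result changes. The sample labels give DKO_CD as a Cdh6/8 knockout, whereas the methods of the study describe the cranial defect group as Cdh8/11 knockout embryos without exencephaly but with an elongated Mb.

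Type II cadherins are calcium-dependent adhesion molecules that sort cells of the neuroepithelium into compartments, and Cdh6, Cdh8 and Cdh11 are 3 of them. At E9.5 the Fb wall consists almost wholly of dividing progenitors kept undifferentiated by Sox2 and Notch signalling. Neurogenesis starts where proneural basic helix-loop-helix factors such as Neurog1 overcome that block, switch on the Notch ligands Dll1 and Dll3, and lead to the first cells with neuronal RNA-binding proteins (Elavl3, Elavl4) and cytoskeleton. A shift of neuronal genes would therefore appear in a proneural group first and in a neuron group later.

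The files give no read totals. From the step between low values, depth was estimated at 2.59 to 2.83 M fragments in DKO_CD and 2.24 to 3.01 M in WT (two-sided exact permutation test, p = 0.738, with 0.0238 the smallest that 84 splits allow). Six3, which marks the anterior Fb, reached 33.1 to 56.9 FPKM in the Fb of DKO_CD and no more than 0.651 in its Mb, and En1, which marks the Mb, did not exceed 0.144 in the DKO_CD Fb. DKO_CD replicate 2 stood apart from replicates 1 and 3. Its mesenchyme, endothelium and Fb lists were the lowest of the 9 libraries, and its surface ectoderm, proneural and Mb lists the highest, so results that rest on it are also given without it. Xist, which is transcribed from the inactive X chromosome, was at no more than 0.126 FPKM in DKO_CD replicates 1 and 2 and WT replicates 1 to 3 and at 77.2 or more in DKO_CD replicate 3 and WT replicates 4 to 6. Several autosomal genes differed between the same 2 sets of WT libraries, as described for Hspa8 below.

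In the DKO_CD Fb, 5 of 13240 genes (0.0378%) passed the threshold against WT, an adjusted p under 0.05 by limma on log2(FPKM + 1). The enzyme gene Tecr and the pseudogenes Rps3a3 and Gm12013 rose (0.0227%), and the long noncoding RNA Gm26825 and the pseudogene Rpl27a-ps1 fell (0.0151%). Without DKO_CD replicate 2 there were also 5 genes, of which 2 were shared with those above. The count was 2 without DKO_CD replicate 1 or without WT replicate 1, 2 or 3, and 10 without WT replicate 4. Grouped by record, 10 genes passed, 3 of them shared with those above (Tecr, Rps3a3 and Gm26825). At an unadjusted p under 0.05 there were 1118 genes (8.44%), 703 higher and 415 lower. The median log2 fold change of all tested genes was 0.04, and 58.1% of them lay above 0. None of the 20 gene lists described below held a gene past the threshold.

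**Figure D1:**
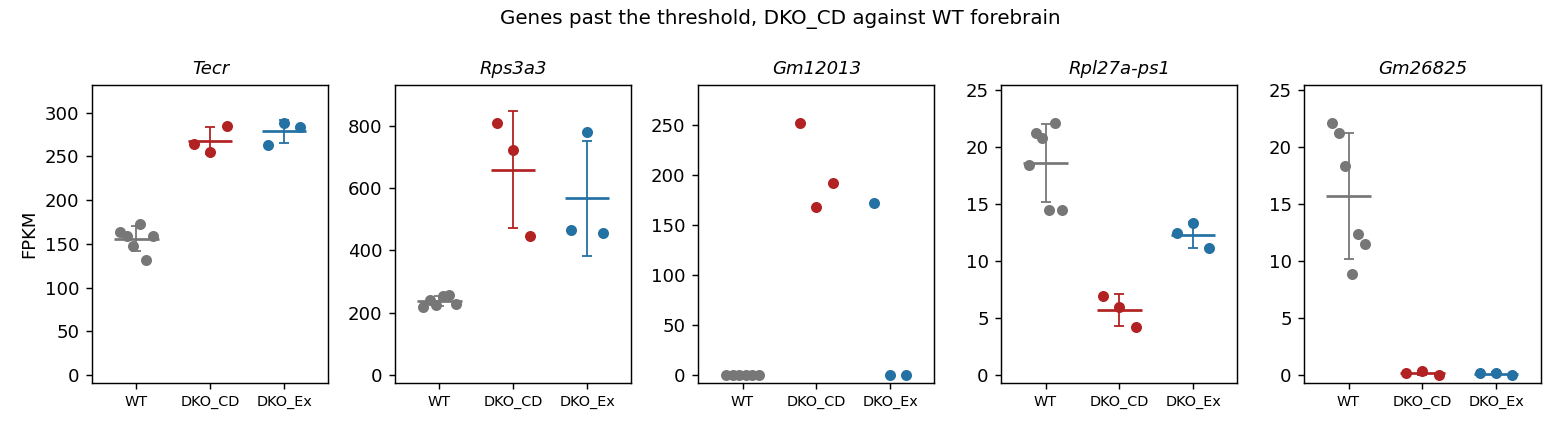
FPKM (vertical axis, from 0, with a scale of its own in each panel) of the 5 genes past the threshold in each Fb library of WT (6), DKO_CD (3) and DKO_Ex (3); lines are means and bars SD, left out for Gm12013, which is listed at 0 in 6 WT libraries. The DKO_CD points of every panel lie outside the WT range, and DKO_Ex lies near DKO_CD for Tecr, Rps3a3 and Gm26825.

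Tecr encodes the reductase of the last step of very-long-chain fatty acid elongation (GRCm38 chr8:83571698-83607971, minus strand). Its level was 264, 255 and 285 FPKM in the DKO_CD Fb and 164, 159, 147, 173, 132 and 159 in WT. No DKO_CD library overlapped with WT, the means being 268 ± 15.8 (SD, n = 3) and 156 ± 14.2 (SD, n = 6). The log2 fold change was 0.78 ± 0.09 (SE, limma adjusted p = 0.0155). This call was lost in all 3 fits that left out a DKO_CD replicate and in those without WT replicate 1, 2 or 3, with log2 fold changes of 0.74 to 0.82. Against the same WT libraries, the log2 fold change was 0.84 in DKO_Ex and 0.69 in TKO_Ex, and in the Mb of DKO_CD against its own WT it was 0.79.

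Gm26825 is a long intergenic noncoding RNA on the plus strand of chromosome 5 (chr5:5781530-5783636). The DKO_CD libraries held 0.21, 0.387 and 0 FPKM of it and the WT libraries 22.1, 21.2, 18.3, 8.88, 12.4 and 11.5. WT replicates 1 to 3 were thus above WT replicates 4 to 6, and all were far above DKO_CD. The log2 fold change was −3.75 ± 0.28 (SE, limma adjusted p = 0.000654), and it kept its side of the threshold in 22 of 23 alternatives. DKO_Ex did not exceed 0.209 FPKM and its log2 fold change against WT was −3.82, whereas a single TKO_Ex library was at 8.24.

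The other 3 genes past the threshold are processed pseudogenes of ribosomal proteins, and the sequences below show how close they stand to the genes they derive from. Each is a stretch of 101 bases, the sequencing cycle number, read from the GENCODE M21 transcripts on GRCm38, 5′ to 3′, and capitals mark the mismatch.
Gm12013 and Rpl39 alike (chr11:17095544-17095644, minus strand): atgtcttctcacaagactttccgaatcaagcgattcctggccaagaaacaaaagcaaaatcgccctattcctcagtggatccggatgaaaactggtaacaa
Rps3a3 and Rps3a1 alike (chr13:108670603-108670703, plus strand): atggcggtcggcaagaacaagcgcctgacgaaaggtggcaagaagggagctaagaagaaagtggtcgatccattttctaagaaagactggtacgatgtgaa
Rpl27a-ps1 (chr10:61309947-61310047, plus strand): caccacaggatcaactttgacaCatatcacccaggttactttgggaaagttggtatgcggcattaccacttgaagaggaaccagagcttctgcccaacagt
Rpl27a: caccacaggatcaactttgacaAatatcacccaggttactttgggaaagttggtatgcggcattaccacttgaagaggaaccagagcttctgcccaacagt
Rps25-ps1 and Rps25 alike (chr6:145266455-145266555, plus strand): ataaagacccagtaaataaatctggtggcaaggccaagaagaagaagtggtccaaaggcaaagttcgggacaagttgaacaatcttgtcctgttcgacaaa
Over their aligned length, Gm12013 was 98.7% identical to Rpl39, Rps3a3 98.9% to Rps3a1, Rpl27a-ps1 96.7% to Rpl27a and Rps25-ps1 98.9% to Rps25. A read of that length from a shared stretch could come from either gene. The shared share was 8 of the 55 stretches in Gm12013, 124 of 695 in Rps3a3, 93 of 278 in Rps25-ps1 and 0 of 348 in Rpl27a-ps1, whose closest stretch carries the substitution C23A (the base of the pseudogene first, counted from 1 at the 5′ end of the stretch). The levels of the first 3 are therefore uncertain. These counts are for the 1 gene each derives from. With all similar genes counted, 216 of 695 stretches were shared in Rps3a3 and 122 of 278 in Rps25-ps1. Rpl27a-ps1 has 31 similar genes, and whether reads with a mismatch were assigned to it was not tested.

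Rps3a3 measured 809, 721 and 448 FPKM in DKO_CD and 217, 241, 225, 255, 257 and 227 in WT, so that even the lowest DKO_CD library was above every WT library. Its log2 fold change was 1.43 ± 0.16 (SE, limma adjusted p = 0.0155). The call was lost without DKO_CD replicate 1 or 2 or WT replicate 1, 2 or 3, with log2 fold changes of 1.26 to 1.43. Its parent gene Rps3a1, a component of the small ribosomal subunit, was at 37.0 to 55.1 FPKM in DKO_CD and 55.7 to 74.9 in WT (log2 fold change −0.42 ± 0.14, adjusted p = 0.468). Rpl27a-ps1 was at 6.97, 5.96 and 4.22 FPKM in DKO_CD and at 18.4, 21.2, 20.8, 14.5, 22.1 and 14.5 in WT, with no overlap (log2 fold change −1.55 ± 0.18, adjusted p = 0.0188). It kept that call in 12 of 23 alternatives and in 2 of the 9 fits that left out a replicate. Between 5 and 26 fragments lay behind its values in these 9 libraries. Its log2 fold change was −0.54 in DKO_Ex and −0.35 in TKO_Ex against the same WT libraries, so that grouping by record ended the call (adjusted p = 0.422).

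Gm12013 measured 252, 168 and 192 FPKM in the DKO_CD libraries and was listed at 0 in every WT Fb library. Across all 32 libraries of the series it was listed at 0 in 20 and otherwise lay between 128 and 446, with nothing in between. The log2 fold change was 7.66 ± 0.15 (SE, limma adjusted p = 1.72e-09), but with all 4 Fb groups in one fit the gene no longer passed, nor did it when grouped by record (2.48, adjusted p = 0.77). In the DKO_Ex Fb 1 of 3 libraries was above 0, and in the Mb all 3 DKO_CD libraries were at 0 while 5 of 6 WT libraries were at 128 to 183. Rpl39, a component of the large ribosomal subunit, measured 1210, 1450 and 1200 FPKM in DKO_CD and 1170 to 1790 in WT, so that it overlapped.

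With the 5 genes above included, 387 genes (2.92%) had all 3 DKO_CD libraries above all 6 WT libraries and 172 (1.3%) had all below. Pseudogenes made up 29.1% of the lower and 1.55% of the higher ones, against 6.96% of all genes tested. Among those below the threshold that averaged 5 FPKM or more, the 8 with the smallest p that were higher in DKO_CD were Commd9, D8Ertd738e, Celf1, Tpm4, Zfp410, Tmem87b, Ccnd1 and Wdr83os (limma adjusted p = 0.106 to 0.215). Commd9, a COMM domain protein gene, was at 41.4, 25.4 and 25.3 FPKM in DKO_CD and at 11 to 16.7 in WT. Celf1, a regulator of splicing and mRNA decay, was at 167, 121 and 115 against 66.7 to 88.7. Both genes lie on chromosome 2, and their log2 fold changes of 1.07 and 0.83 in DKO_CD stood beside 0.16 and 0.26 in DKO_Ex. Tpm4, an actin-binding tropomyosin, was at 258, 199 and 245 against 138 to 173 (log2 fold change 0.56 ± 0.10). Ccnd1, the G1 cyclin D1, was at 115, 112 and 123 against 76.2 to 98.1 (log2 fold change 0.45 ± 0.09). The remaining 4 had log2 fold changes of 0.59 to 0.80. Commd9, D8Ertd738e and Wdr83os moved past the threshold in 1 of the alternatives each.

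On the lower side the 8 genes were Gm13408, Rpl18-ps1, Rps25, Ndufa6, Ciapin1, Rps3a2, Car12 and Rex1bd (limma adjusted p = 0.0535 to 0.106). Of these, 3 are processed pseudogenes (Gm13408, Rpl18-ps1 and Rps3a2). Gm13408 moved past the threshold in 8 of 23 alternatives, Rpl18-ps1 in 5 of 23, Rps25 in 5 of 24, Ndufa6 in 1 of 23 and the others in none. Car12, a membrane-bound carbonic anhydrase, had the largest difference, at 3.15, 1.61 and 3.42 FPKM in DKO_CD against 5.89 to 8.39 in WT (log2 fold change −1.15 ± 0.19). Ndufa6, a subunit of respiratory complex I, was at 132, 133 and 151 against 182 to 209. Ciapin1, which takes part in cytosolic iron-sulphur cluster assembly, was at 36.1, 39.4 and 38.2 against 49.4 to 61.0. Ndufa6 and Ciapin1 had log2 fold changes of −0.50 and −0.59 in DKO_CD, −0.39 and −0.49 in DKO_Ex and −0.51 and −0.55 in TKO_Ex.

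Rps25, a component of the small ribosomal subunit, was at 239, 222 and 239 FPKM in DKO_CD and at 445, 510, 537, 356, 407 and 381 in WT (log2 fold change −0.89 ± 0.13, adjusted p = 0.0588). Its pseudogene Rps25-ps1, named for sharing sequence with it, was at 791, 805 and 843 in DKO_CD and at 364, 417, 446, 747, 721 and 618 in WT (log2 fold change 0.61 ± 0.22, adjusted p = 0.516). In WT replicates 4 to 6 the gene was lower and the pseudogene higher than in WT replicates 1 to 3, the direction seen in DKO_CD. The chaperone gene Hspa8, which was singled out after its values had been seen, followed the same order, with 124, 121 and 132 FPKM in WT replicates 1 to 3, 271, 252 and 281 in WT replicates 4 to 6 and 449, 489 and 531 in DKO_CD. Its log2 fold change against all WT libraries was 1.41 ± 0.30 (adjusted p = 0.254). Within the libraries low in Xist it was 1.89, and within those high in Xist 0.98, where replicate 3 is the only DKO_CD library. Its size thus differed with the WT and DKO_CD libraries compared. The cause of the split among WT libraries was not tested.

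**Figure D2:**
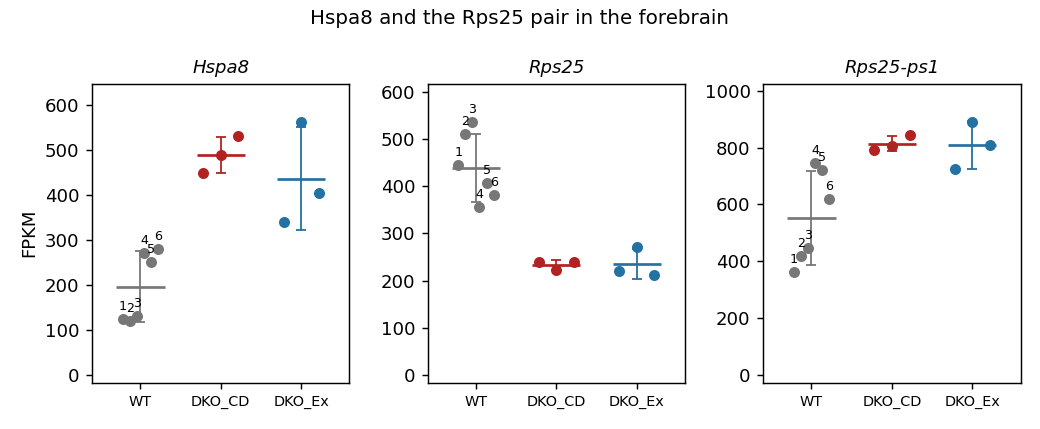
FPKM (vertical axis, from 0, with a scale of its own in each panel) of Hspa8, Rps25 and Rps25-ps1 in each Fb library of WT (6, numbered by replicate), DKO_CD (3) and DKO_Ex (3); lines are means and bars SD. WT replicates 4 to 6 lie between WT replicates 1 to 3 and DKO_CD for all 3 genes.

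Most neuronal genes lay higher in the DKO_CD Fb as named by the headings, but no gene passed the threshold, and the medians of the lists were near 0 when libraries were grouped by record. Of the 20 proneural genes, 14 averaged 1 FPKM or more and were tested, and these 14 had a log2 fold change above 0, as did 58.1% of all genes. Their median was 0.44 against 0.04 for all genes tested, and without the filter 18 of 20 genes lay above 0. At an unadjusted p under 0.05, 5 were higher and none lower, where 5.31% of all genes were higher and 3.13% lower. One of the 5, Neurod1, averaged under 1 FPKM in WT and passed the filter through its DKO_CD libraries, and without it 4 of 13 were higher, with a median of 0.40. None of the 14 had libraries that did not overlap, compared with 2.92% of all genes on the higher side. The mean log2(FPKM + 1) of the list, with Neurod1 included, was 3.11, 3.68 and 3.0 in DKO_CD and 2.47 to 2.83 in WT. DKO_CD replicate 2 was the highest by far, and without it the median fell to 0.28 with 12 of 13 genes above 0. In DKO_Ex, the cranial defect group by record, the median against the same WT libraries was 0.03 with 7 of 12 tested genes above 0, in TKO_Ex 0.16 and in the DKO_CD Mb −0.07.

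Neurog1, a proneural factor of sensory and some forebrain lineages, had the largest difference of the group. Its level was 2.41, 11.3 and 4.26 FPKM in DKO_CD and 2.73, 0.996, 1.08, 4.0, 0.621 and 1.98 in WT. Replicate 1 of DKO_CD thus lay inside the WT range and replicate 2 well above it (log2 fold change 1.17 ± 0.45, limma adjusted p = 0.545, and 0.66 without replicate 2). Between 2 and 54 fragments stood behind these values. Insm1, a zinc finger factor of newly born neuronal progenitors, was at 4.8, 9.1 and 2.32 against 1.35 to 3.27 (log2 fold change 0.88 ± 0.32, adjusted p = 0.522).

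The more abundant members of the proneural list differed less. Sox11 and Sox4, transcription factors of differentiating neurons, were at 64.5, 48.4 and 57.9 FPKM and at 61.3, 51.4 and 56.0 in DKO_CD, against 42.0 to 56.3 and 37.9 to 54.2 in WT. Both had a log2 fold change of 0.22. Hes6, an inhibitor of Hes1 that favours differentiation, was at 27.3, 34.3 and 23.5 against 16.6 to 26.3 (log2 fold change 0.40 ± 0.17, adjusted p = 0.564). The Notch ligand Dll1 had the smallest difference, at 15.2, 10.6 and 9.61 against 7.64 to 15.8. Neurod1 was at 2.09, 3.17 and 0.842 against 0.256 to 1.36. Under the filter were Eomes, Neurog3, Neurod4, Nhlh2, Srrm4 and Atoh1.

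The neuron list holds 40 genes of postmitotic neurons, of which 39 were matched and 30 tested, Tubb3 being not analysed here. Of the 30, 24 had a log2 fold change above 0 and 6 below, with a median of 0.21, where 58.1% of all genes lay above 0. At an unadjusted p under 0.05, 3 were higher and none lower, against 5.31% and 3.13% of all genes. One of the 3, Ebf2, was at 1.89, 2.26 and 0.767 FPKM against 0.522 to 1.17 in WT and passed the filter through its DKO_CD libraries. Without it 2 of 29 were higher, with a median of 0.20. These 2 (Elavl3 and Elavl4) had libraries that did not overlap, as did 2.92% of all genes on the higher side. Elavl4 (HuD), an RNA-binding protein of newborn neurons, was at 3.58, 4.61 and 5.25 FPKM in DKO_CD and at 2.34, 2.48, 1.72, 1.58, 2.19 and 1.17 in WT. All DKO_CD libraries were above all WT libraries (log2 fold change 0.92 ± 0.20, limma adjusted p = 0.26). Elavl3 (HuC) was at 4.53, 4.69 and 3.68 against 2.04, 3.51, 1.24, 1.45, 0.978 and 2.58 (log2 fold change 0.89 ± 0.27, adjusted p = 0.417). Neither rested on replicate 2, the log2 fold changes without it being 0.90 and 0.84.

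Gng3, a G protein gamma subunit of neurons, was at 7.27, 9.3 and 3.89 FPKM against 2.11 to 8.84, so that it overlapped (log2 fold change 0.67 ± 0.35). The genes with the highest levels in the list did not move together. Klc1, a kinesin light chain, was at 52.3, 38.3 and 50.4 against 35.7 to 51.7, while Gap43 (growth cone), Syt11 (a synaptotagmin) and Lhx5 (a LIM homeobox factor) had log2 fold changes of −0.05, −0.04 and 0.00. The lowest values were those of the adhesion molecule L1cam (−0.31 ± 0.38), Crmp1 (−0.21 ± 0.12) and Nsg2 (−0.14 ± 0.20). The mean log2(FPKM + 1) of the list, with Ebf2 included, was 2.87 to 2.95 in DKO_CD and 2.5 to 2.86 in WT. Without replicate 2 of DKO_CD the median was 0.19. The median was 0.04 in DKO_Ex, with 16 of 29 tested genes above 0, 0.16 in TKO_Ex and −0.04 in the DKO_CD Mb. In the list of cranial ganglion and placode genes, 4 of 13 matched genes were tested and none had libraries that did not overlap. Isl1 was at 2.53, 3.71 and 3.98 against 0.835 to 3.19 (log2 fold change 0.68 ± 0.26) and Eya2 had a log2 fold change of 0.14 ± 0.30, and the median of 0.39 fell to 0.05 without replicate 2. It was 0.14 without Pou4f1, which passed the filter through its DKO_CD libraries.

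**Figure D3:**
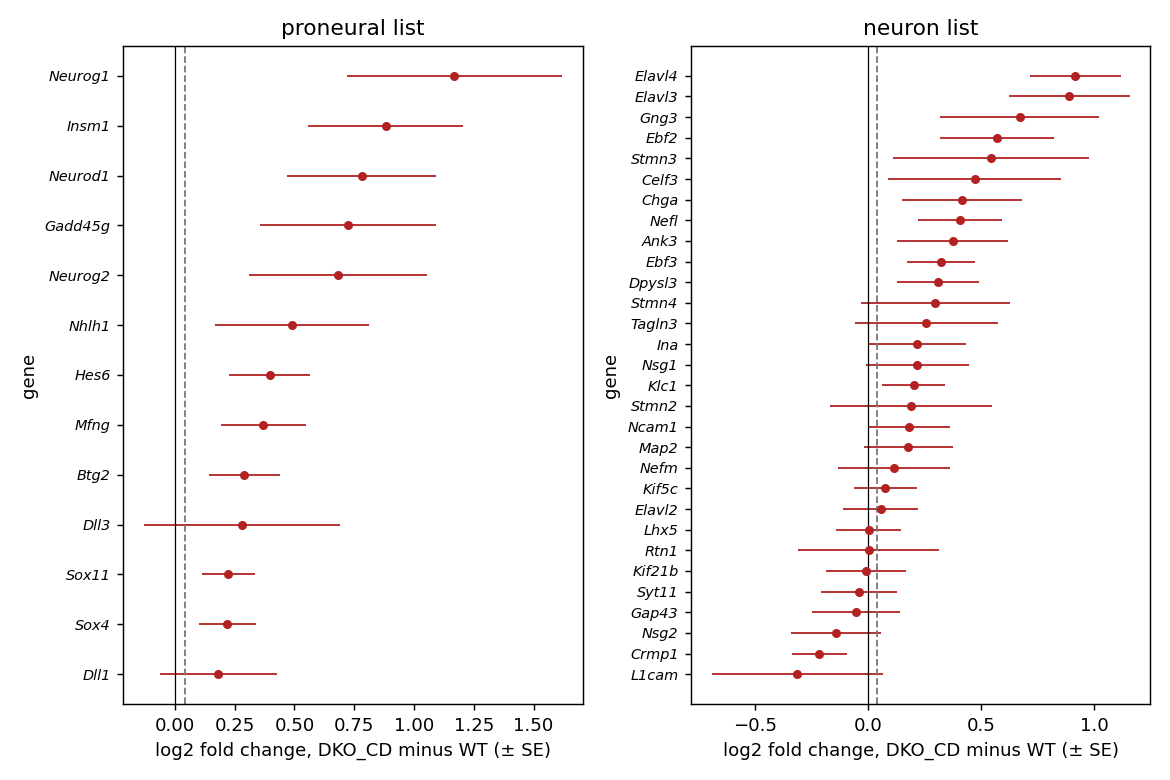
Log2 fold change of DKO_CD minus WT Fb on the log2(FPKM + 1) scale (horizontal axis, points with SE from limma) for 13 of the 14 proneural and all 30 neuron genes tested, sorted by value; the solid line is 0 and the dashed line the median of all genes, 0.04. All 13 proneural points and 24 of 30 neuron points lie above 0, and the error bars of most neuron genes near the bottom cross it.

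Most progenitor genes also lay above 0, and none passed the threshold. Of 21 tested, 18 had a log2 fold change above 0, 4 were higher at an unadjusted p under 0.05 and 3 (Nes, Sox2 and Ccnd1) had libraries that did not overlap, with a median of 0.26. Over all genes these shares were 58.1%, 5.31% and 2.92%. By record the median was 0.11, with 16 of 21 above 0. Sox2, which maintains neural progenitors, was at 135, 140 and 135 FPKM in DKO_CD and at 116, 123, 112, 100, 97.6 and 110 in WT. Its DKO_CD libraries were close to each other and above every WT library (log2 fold change 0.32 ± 0.08, limma adjusted p = 0.398). Nes, the intermediate filament of progenitors, was at 52.7, 55.7 and 53.2 against 33.8 to 51.9. Vim, a second intermediate filament and the most abundant gene of the list, was at 252, 258 and 228 against 172 to 240 (log2 fold change 0.32 ± 0.11, and −0.39 by record). The list had its highest value in Rfx4 (0.48 ± 0.25, and 0.16 without replicate 2) and its lowest in Pax6 (−0.09 ± 0.13). Without replicate 2 the median was 0.26, with 19 of 21 genes above 0.

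In the Notch list 16 of 17 tested genes had a log2 fold change above 0, with a median of 0.19, 1 higher at an unadjusted p under 0.05 and none with libraries that did not overlap. Over all genes 58.1% lay above 0 and 5.31% were higher at that p, so that 1 of 17 was near the background. By record the Notch median was −0.05, with 5 of 17 above 0. Dll1, Dll3 and Mfng are also in the proneural list and Hes1, Hes5 and Notch1 in the progenitor list, so these lists are not independent. Rbpj, the DNA-binding mediator of Notch, was at 19.2, 18.2 and 29.5 FPKM against 11.2 to 20.7 (log2 fold change 0.45 ± 0.19). Hes1, the most abundant target, was at 56.3, 47.6 and 56.0 against 49.0 to 54.1 (0.02 ± 0.08), and Dll4 had the lowest value (−0.10 ± 0.26). The receptor Notch1 and the target Hes5 were at 10.5, 8.45 and 14.8 and at 29.1, 47.5 and 32.0, against 6.08 to 14.5 and 16.2 to 39.0.

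Of the 32 cell cycle genes, 25 had a log2 fold change above 0, with a median of 0.10. There were 5 higher at an unadjusted p under 0.05, and 3 (Rrm2, Bub1 and Ccnd1, which is also in the progenitor list) had libraries that did not overlap, where the shares of all genes were 58.1%, 5.31% and 2.92%. By record the median was −0.08, with 8 of 32 above 0. The D cyclin Ccnd2 was at 121, 108 and 120 FPKM against 67.3 to 109, and Rrm2, a ribonucleotide reductase subunit, at 216, 229 and 200 against 174 to 197. Mki67, the proliferation marker, was at 47.3, 41.4 and 46.3 against 39.1 to 50.3 (log2 fold change 0.03 ± 0.09), and Pcna, the most abundant, at 0.18 ± 0.08. The cell cycle inhibitor Cdkn1c had the highest value (0.46 ± 0.18) and the cytokinesis kinesin Kif23 the lowest (−0.18 ± 0.16).

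**Figure D4:**
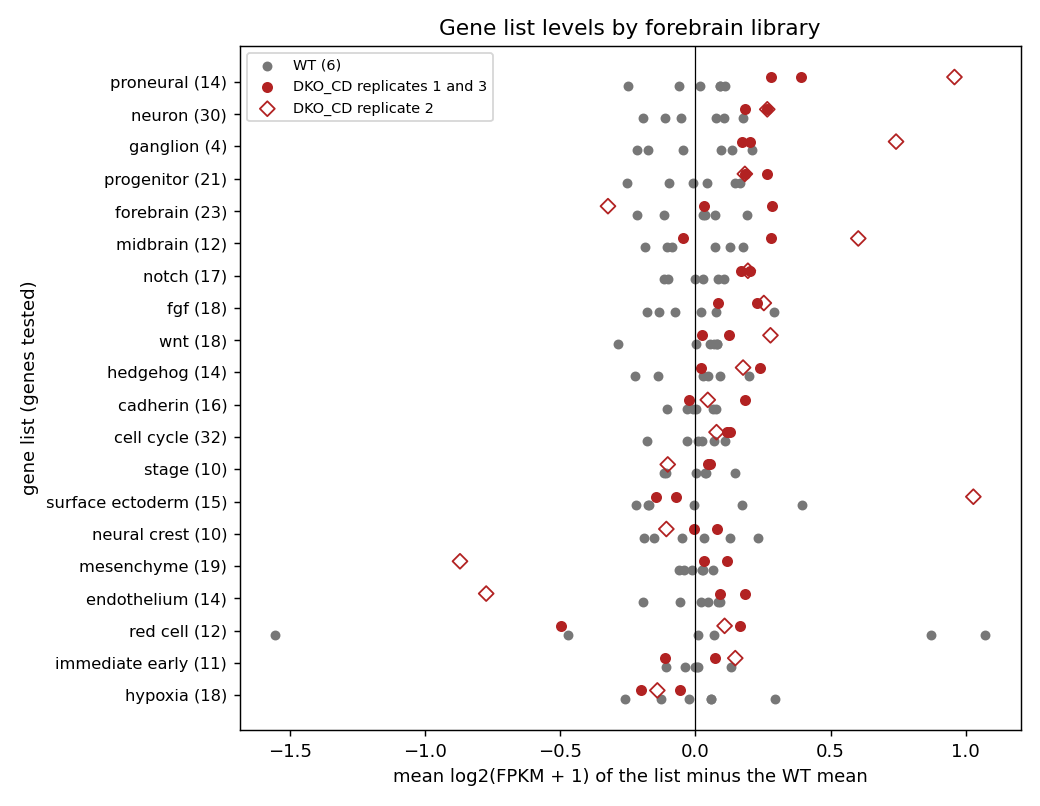
Mean log2(FPKM + 1) of the tested genes of each list in each library minus the mean of the 6 WT libraries (horizontal axis), for WT (grey), DKO_CD replicates 1 and 3 (red) and DKO_CD replicate 2 (open diamonds), with the number of genes tested beside each list. All 3 DKO_CD libraries lie to the right of WT for the proneural, neuron, progenitor and Notch lists. The gap is narrow for the neuron list (mean log2(FPKM + 1) of 2.87 in the lowest DKO_CD and 2.863 in the highest WT library) and the progenitor list (5.137 and 5.119). Neurod1 in the proneural list and Ebf2 in the neuron list passed the filter through their DKO_CD libraries. Replicate 2 lies apart from the others for the surface ectoderm, mesenchyme and endothelium lists. The Notch list shares genes with the proneural and progenitor lists.

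Fb transcription factors lay on both sides of 0. Among 23 tested Fb genes, 12 had a log2 fold change above 0 and 11 below (median 0.06), with none at an unadjusted p under 0.05. The mean log2(FPKM + 1) of the list was 3.37 in DKO_CD replicate 2, the lowest of the 9 libraries, and 3.47 to 3.88 in WT, and without that replicate the median was 0.15 with 17 of 23 genes above 0. Otx2, required for Fb and Mb identity, was at 77.2, 111 and 89.9 FPKM against 61.2 to 94.2 (log2 fold change 0.25 ± 0.15). Barhl2, a diencephalic factor, had the highest value (0.82 ± 0.40) and Hesx1, a repressor of the anterior neural plate, the lowest (−0.74 ± 0.35, with libraries at 2.16, 1.18 and 0.404 against 1.31 to 4.52). In the Mb list, 11 of 12 genes lay above 0 with a median of 0.19, which became 0.00 without replicate 2, and 1 of the 12, Pax8, passed the filter through its DKO_CD libraries. Meis2 was at 22.6, 71.6 and 38.6 against 17.4 to 47.2, and Pax2 at 6.15, 0.497 and 5.15 against 2.33 to 4.18, so that replicate 2 was the highest of the 9 libraries for the former and the lowest for the latter.

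For the signalling lists, 14 of 18 Fgf, 14 of 18 Wnt and 13 of 14 Hedgehog genes had a log2 fold change above 0, with medians of 0.15, 0.11 and 0.16, where 58.1% of all genes lay above 0. At an unadjusted p under 0.05 there were 2 higher in the Fgf list and none in the others, against 5.31% of all genes. Fgf8, the signal of the anterior neural ridge and of the Mb-hindbrain border, was at 19.6, 34 and 20.1 FPKM against 7.39 to 22.5 (log2 fold change 0.82 ± 0.35, limma adjusted p = 0.572). Its receptor gene Fgfr3 was at 7.84, 15.5 and 8.93 against 5.13 to 8.24. Fgfr1, the most abundant, was at 0.05 ± 0.13 and Fgf3 at −0.41 ± 0.33. Fgf15, a mitogen of the neural tube, was at 17.6, 11.7 and 29.4 in DKO_CD and at 11.5, 16.0, 21.7, 16.0, 14.8 and 20 in WT. The DKO_CD libraries thus reached from the bottom of the WT range to above it (log2 fold change 0.15 ± 0.26, adjusted p = 0.898). In the Wnt list the range ran from Nkd1 (−0.08 ± 0.15) to Wnt4 (0.58 ± 0.29, and 0.16 without replicate 2), with Sfrp2 the most abundant (0.06 ± 0.17). Among Hedgehog genes it ran from Nkx6-1 (−0.02 ± 0.31) to Nkx2-2 (0.28 ± 0.47), with the transducer Smo the most abundant (0.01 ± 0.09).

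Grouped by the headings, the targeted cadherin genes showed no change past the spread of the libraries. Cdh6 was at 3.43, 1.72 and 2.78 FPKM in DKO_CD and at 4.0, 3.19, 2.04, 2.19, 3.61 and 3.33 in WT (log2 fold change −0.16 ± 0.23, limma adjusted p = 0.868). Cdh8 was at 0.449, 1.44 and 0.988 against 1.9, 0.84, 1.36, 1.55, 1.12 and 1.96 (−0.34 ± 0.25, adjusted p = 0.738), from 5 to 26 fragments. Cdh11 was at 25.3, 12.7 and 22.6 against 20.9, 25.3, 19.5, 24.2, 23.0 and 22 (−0.20 ± 0.19, and 0.09 without replicate 2). By the headings, the levels of these genes overlapped between the groups. By record, Cdh8 was at 0.423, 0.626 and 0.702 and Cdh11 at 17.9, 17.1 and 18.7, all below every WT library. Their log2 fold changes were then −0.62 and −0.31 (limma adjusted p = 0.61 and 0.535), while Cdh6 overlapped with WT. These levels check neither the genotype nor the labels, since the alleles leave most of each gene in place. Cdh2 (N-cadherin), the main classic cadherin of neuroepithelia, was at 70.0, 57.3 and 66.1 against 48.7 to 61.7 (0.18 ± 0.10), and Cdh1 (E-cadherin), of surface epithelia, at 6.34, 16.2 and 6.45 against 5.73 to 10.8. Of 16 tested genes of the cadherin and catenin list, 10 lay above 0 (median 0.17, and 0.08 without replicate 2), with 1 higher at an unadjusted p under 0.05 (5.31% of all genes). The list ran from the endothelial Cdh5 (−0.35 ± 0.29) to Cdh3 (0.56 ± 0.34, and 0.08 without replicate 2), and Ctnnb1, which encodes beta-catenin, was its most abundant gene (0.09 ± 0.07).

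Dissected Fb also holds cells of other types, and in bulk tissue fewer cells of a type and less RNA per cell cannot be told apart. In the list of head mesenchyme 14 of 19 genes had a log2 fold change below 0, 3 (Crabp1, Twist1 and Snai1) were lower at an unadjusted p under 0.05, compared with 3.13% of all genes, and the median was −0.31. The summed level of the list was 495 to 947 FPKM in DKO_CD and 928 to 1110 in WT, and no member was at 0 throughout. The low end was replicate 2, without which the median was 0.06 with 12 of 19 genes above 0. In DKO_Ex, the cranial defect group by record, the median was −0.38 with 1 gene above 0, and in TKO_Ex it was −0.37. The mean log2(FPKM + 1) of the list was 3.64 to 3.83 in DKO_Ex and 4.02 to 4.15 in WT. Crabp1, a retinoic acid binding protein, was at 602, 317 and 551 against 595 to 745. Twist2 had the highest value (0.38 ± 0.25). In DKO_CD the endothelium list behaved alike, with 11 of 14 genes below 0 and a median of −0.26 that became 0.06 without replicate 2. Its summed level was 85.6 to 168 against 135 to 186, and its median in DKO_Ex was −0.08. Sox17 was at 2.67, 0.598 and 5.4 against 3.2 to 6.59, Egfl7 at 45.8, 30.2 and 61.0 against 44.4 to 90.0, and Emcn had the highest value (0.57 ± 0.26).

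Surface ectoderm genes went the other way in the same library. The summed level of the list was 151 to 392 FPKM in DKO_CD, the highest in replicate 2, and 121 to 218 in WT. The median over 15 genes was 0.21, and without replicate 2 it was −0.07. Krt18, a simple epithelial keratin, was at 43.6, 73.8 and 25.4 against 18.7 to 32.2 (0.77 ± 0.28), Cldn6, a tight junction claudin, at 34.3, 81.2 and 36.7 against 23.2 to 48.6, and Perp at 1.36, 7.1 and 1.7 against 1.74 to 4.04. Trp63, a factor of stratified epithelia, was the single member with libraries that did not overlap (1.51, 2.22 and 1.56 against 0.916 to 1.11). Over all genes 2.92% were higher without overlap. At an unadjusted p under 0.05, 2 of the 15 were higher, against 5.31% of all genes. The neural crest list had a median of 0.06 over 10 genes, from Sox10 (−0.65 ± 0.36) to Snai2 (0.49 ± 0.18). Snai2 was its 1 member with no overlap, against 2.92% of all genes on the higher side. Sox9 was at 18.4, 7.36 and 18.5 against 13.7 to 19.9. What part these cells have in the neuronal values was not tested. Without replicate 2, where the mesenchyme, endothelium and surface ectoderm medians were 0.06, 0.06 and −0.07, those of the proneural and neuron lists were 0.28 and 0.19.

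Red blood cell genes varied most within WT, where the list summed to 2800 to 24100 FPKM against 7030 to 11800 in DKO_CD, and their median was −0.13. The embryonic globin Hbb-y was at 4070, 4170 and 2510 in DKO_CD and at 787 to 8400 in WT, and the list ran from Klf1 (−0.79 ± 0.49) to Epb42 (0.64 ± 0.37). Of 10 genes that change with embryonic stage, 5 lay above and 5 below 0 (median 0.00), from Lin28a (−0.26 ± 0.17) to Igf2bp3 (0.15 ± 0.07), with Hmga1 at 797, 637 and 938 against 717 to 943. In the immediate early list the median was 0.12 over 11 genes, with Jun the highest (0.33 ± 0.16) and Ier3 the lowest (−0.46 ± 0.32). Ier2 alone was lower at an unadjusted p under 0.05 (41.9, 45.3 and 52.6 against 48.0 to 60.3), where 3.13% of all genes were lower. Of 18 hypoxia and glycolysis genes, 14 lay below 0 (median −0.11). Hk2, a hexokinase of the first step of glycolysis, measured 26.5, 19.9 and 32.7 FPKM in DKO_CD against 47.3, 53.8, 46.9, 44.6, 52.2 and 40.3 in WT (log2 fold change −0.85 ± 0.15, limma adjusted p = 0.12). It was the 1 member of this list with no overlap, against 1.3% of all genes on the lower side. Ldha, the most abundant of the list, was at 1050, 1110 and 943 against 989 to 1320, and Egln3 had the highest value (0.29 ± 0.25).

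Genes of chromosome 8, which carries Cdh8 and Cdh11, stood out in number. Of the 21 genes past the threshold or named next to it above, 6 lie on chromosome 8 (Tecr, D8Ertd738e, Tpm4, Wdr83os, Ciapin1 and Rex1bd), 4 on chromosome 2 and at most 2 on any other. Of 641 tested genes of chromosome 8, 44 were higher and 13 lower in DKO_CD with libraries that did not overlap, or 8.89% against 4.22% of all genes. Chromosome 15, which carries Cdh6, followed with 6.61%, and the other autosomes and chromosome X lay between 2.61% and 5.6%. Within 10 Mb of Cdh8 and Cdh11 the share was 7.23% of 166 genes, and within 20 Mb it was 8.9% of 281. Around Cdh6 it was 2.7% of 37 and 3.51% of 57. The highest share among bins of 10 Mb with at least 20 genes was 14.7% of 116 genes at 20 to 30 Mb on the centromeric side of Cdh8, which holds Tpm4 and Rex1bd, followed by 13.8% of 29 genes at 60 to 70 Mb. Neighbouring genes share an inherited segment and are not independent. Against DKO_Ex, whose embryos came from the same kind of mating, 9.34% of 653 chromosome 8 genes did not overlap with DKO_CD, compared with 11.1% of all genes. Only 3 libraries stood on each side there, where a lack of overlap is more frequent by itself. These shares therefore cannot be set beside those against the 6 WT libraries. Whether the chromosome 8 share against WT comes from the targeted alleles, from the strain segments linked to them or from parentage cannot be told apart in this design.

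**Figure D5:**
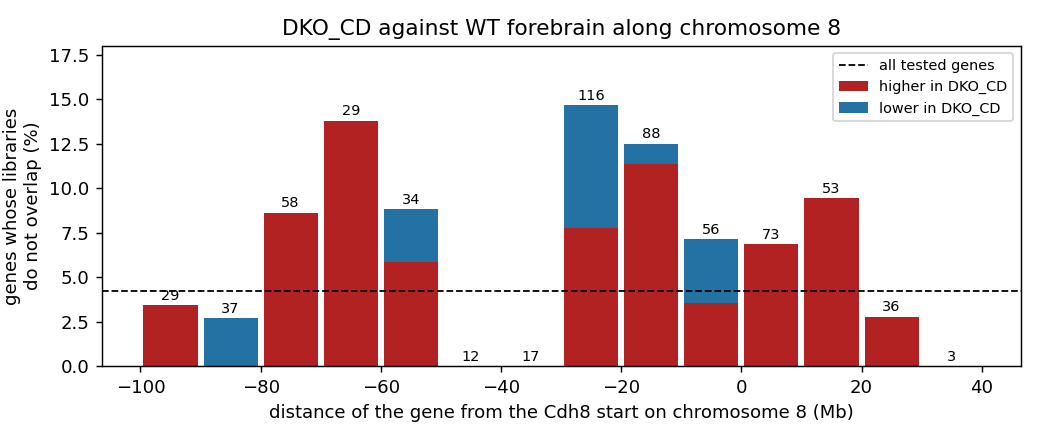
Share of tested chromosome 8 genes (vertical axis, percent) whose 3 DKO_CD and 6 WT Fb libraries do not overlap, in bins of 10 Mb by distance from the start of Cdh8 (horizontal axis, Mb, negative towards the centromere), with the number of genes above each bar and the share of all tested genes, 4.22%, as a dashed line. The bins from −30 to 20 Mb lie above that line, and so do those from −80 to −50 Mb, whereas the 2 bins between them hold 12 and 17 genes.

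DKO_CD and DKO_Ex were compared directly in the Fb over 3 libraries each. By the sample labels they differ in the cadherin genes knocked out as well as in the cranial phenotype. By the labels, genotype and phenotype therefore cannot be told apart in this comparison. The methods of the study instead describe both groups as Cdh8/11 knockouts that were separated by phenotype. Of 13282 genes, 1 passed (0.00753%), Snora73a, and 736 (5.54%) had an unadjusted p under 0.05. Snora73a, a small nucleolar RNA, was at 0 in all DKO_CD libraries to within rounding and at 34.5, 29.8 and 59.1 FPKM in DKO_Ex (log2 fold change −5.34 ± 0.27, limma adjusted p = 0.00256). In WT it was listed at 0 in 2 of 6 libraries and lay at 34.7 to 63.1 in the others, so DKO_CD did not stand outside WT. With all 4 Fb groups in one fit no gene passed. The proneural list had a median of 0.45 in this direct comparison and the neuron list of 0.14, and no member passed. Elavl4 was at 3.58, 4.61 and 5.25 in DKO_CD against 1.34 to 2.57 in DKO_Ex (log2 fold change 0.96, adjusted p = 0.874). Its libraries did not overlap, as was so for 11.1% of all genes here (1077 higher and 398 lower in DKO_CD).

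Whether the DKO_CD effect differed between Fb and Mb was tested as an interaction over 13397 genes. Only Gm12013 passed (0.00746%, interaction 13.68 ± 1.60 on the log2 scale, limma adjusted p = 0.0018), and 647 genes (4.83%) had an unadjusted p under 0.05. This is the gene listed either at 0 or above 128 FPKM, at 0 in the WT Fb and the DKO_CD Mb alike. Values of the proneural factors stood side by side at 1.17 in the Fb and −0.02 in the Mb for Neurog1 and at 0.88 and −0.08 for Insm1, and neither difference passed. In a simulation of this interaction 48% of genes with a log2 difference of 1 were recovered, compared with 82% for DKO_CD against WT in the Fb. Differences of this size could thus often be missed, and the simulation gave every gene the same dispersion, so genes with a wider spread are not covered.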

How the data were processed

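Directional libraries from total RNA were sequenced by the authors for 101 cycles, and the reads were aligned to GRCm38 with TopHat2 and summarised as FPKM per gene with Cufflinks, which are the values deposited. Tool versions and the gene annotation are not given in the sources used here, and the HTSeq counts and the DESeq2 test of the study were not used. Values of 65 repeated identifiers were summed, and 48218 of 48576 identifiers were found in GENCODE M21.

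FPKM already carry a correction for gene length and library size, and reads of near-identical genes may be split between them. The depth of each library came from the spacing of low FPKM in 771 genes with a single transcript of at least 4000 bases. In these 9 libraries, 84.7% to 91.6% of those values lay within 0.1 of a whole number of fragments.

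The 3 DKO_CD and 6 WT Fb libraries were compared with limma 3.58.1 in R 4.3.3 (lmFit, eBayes with a trend) on log2(FPKM + 1), for a mean of 1 FPKM or more, with Benjamini-Hochberg adjustment over all genes tested. This scale understates the fold change of genes with low values. A fit of counts was not possible on this unit. DKO_CD was also compared with DKO_Ex, and the difference between Fb and Mb was fitted as an interaction. A simulation gave every gene the same dispersion of 0.02, so genes with a wider spread are not covered. In 200 simulated changed genes, 82% with a log2 fold change of 1 and 100% with 2 were recovered for DKO_CD against WT, with 7 false calls in 13233 genes. For DKO_CD against DKO_Ex the recovery was 71% and 94.9% in 13276 genes, and for the interaction 48% and 93% in 13400, with 10 false calls in each. With no gene changed, these comparisons still gave 1 false call each, and DKO_CD against WT gave 0.

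The genes named are Cdh6, Cdh8, Cdh11, Cdh1, Cdh2 and Fgf15, all genes past the threshold, the 8 in each direction with the smallest p among genes at a mean of 5 FPKM or more whose libraries did not overlap, and for each list its most abundant, highest and lowest members (the 4 most abundant and 3 at each end for the proneural and neuron lists). Some genes that this rule names are not reported here. Any others, and members given for an unadjusted p or for not overlapping, were chosen after their values had been seen. The comparison, the members and the 20 lists were chosen with earlier results of these data known. Pseudogenes were aligned to transcripts with blastn 2.17.0. Alternatives were other filters, pseudocounts of 0.1 and 5, median-of-ratios and quantile scaling, no trend, the grouping by record, Xist as a covariate, all 4 Fb groups in one fit, a minimum log2 fold change of 1, removal of chromosomes 8 and 15, of pseudogenes or of each replicate, a replicate block and a window of 20 Mb. Fits within the libraries low or high in Xist, and the neuronal medians over members with a WT mean of at least 1 FPKM, were added after the data had been seen.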

Additional observations from a re-analysis of the deposited data

Results flagged for a closer look

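In 6 of 118 values checked over the 6 WT Fb libraries, a single library lay far from the other 5, and chance alone gives about 1 in 20. These were Wdr83os at 66.4 FPKM in WT replicate 4, L1cam at 8.15 in WT replicate 6, Crmp1 at 24.0 and Gng3 at 8.84 in WT replicate 1, Egfl7 at 90.0 in WT replicate 5, and the Wnt list with a mean log2(FPKM + 1) of 2.89 in WT replicate 5. The high WT libraries of L1cam and Gng3 widen the WT range that the DKO_CD libraries of these neuron genes fall in. The DKO_CD effect on Gm12013 differed between Fb and Mb by 13.68 on the log2 scale in the interaction test, a gene listed at 0 in 20 of 32 libraries.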

How the results depend on the processing

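The count of genes past the threshold in the DKO_CD Fb against WT, 5 as reported, was within 1.5 times in 8 of 16 alternatives. It was 15 with no filter, 10 when libraries were grouped by record, 9 with median-of-ratios scaling, with a pseudocount of 5 or with Xist as a covariate, 8 with quantile normalization or in the libraries low in Xist, and 2 with pseudogenes left out, which removes 3 of the 5 genes. Leaving out a replicate gave 2 (without DKO_CD replicate 1 or WT replicate 1, 2 or 3) to 10 (without WT replicate 4). Against DKO_Ex, 1 gene as reported, the count was 0 with all 4 Fb groups in one fit or with at least 1 FPKM in every library, 3 with no mean-variance trend, and 1 to 4 with a replicate left out (4 without DKO_Ex replicate 1). For the interaction, 1 as reported, it was 0 with at least 1 FPKM in every library or by record, 5 with no filter and 2 with quantile normalization. The log2 fold change of Snora73a against DKO_Ex became 5.34 by record, where the groups trade places. The proneural median, 0.442, was 0.644 and 0.274 with pseudocounts of 0.1 and 5, 0.032 by record, and 0.281 (without DKO_CD replicate 2) to 0.728 (without DKO_CD replicate 1) with a replicate left out. The neuron median, 0.21, was 0.035 by record. Without DKO_CD replicate 2, the medians became 0.0502 for ganglion, 0.0005 for Mb, 0.0816 for cadherin, −0.0677 for surface ectoderm, 0.0586 for mesenchyme, 0.0604 for endothelium and 0.0316 for immediate early genes, and the other 11 lists moved by less than 1 SD of WT.

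Replicate numbers came from the titles and only name the libraries. Deviations of same-numbered DKO_CD and WT libraries correlated at 0.028, 0.003 and −0.007 for replicates 1 to 3, and no DKO_CD library was closest to its own number. With the replicate block, 4 genes passed against WT, 0 against DKO_Ex and 1 in the interaction, and the proneural and neuron medians were 0.499 and 0.154. The cause of these differences was not tested. At under 3.01 M fragments per library, genes near 1 FPKM rest on few fragments, and differences in them could not be seen unless large.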

Other observations

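Other genes of low level also had DKO_CD libraries outside the WT range, and all those given here were chosen after their values had been seen. Myo7a, an unconventional myosin of sensory cells, was at 5.14, 4.8 and 5.63 FPKM in DKO_CD and did not exceed 2.17 in WT (log2 fold change 1.62 ± 0.24, limma adjusted p = 0.0681). Its log2 fold change was 1.56 in the DKO_CD Mb, 1.18 in DKO_Ex and 0.84 in TKO_Ex. Oplah, the 5-oxoprolinase of glutathione turnover on chromosome 15, was at 2.78, 4.39 and 4.71 against 0.412 to 1.06 (1.54 ± 0.23, adjusted p = 0.0667), and in the DKO_CD Mb the log2 fold change was −0.41. Celf2, a relative of Celf1 and likewise on chromosome 2, was at 15.5, 12.4 and 16.8 against 8.27 to 10.9 (0.58 ± 0.13, adjusted p = 0.26). Fam107b was at 71.8 in DKO_CD replicate 2 and at 15.8 and 18.8 in the other DKO_CD libraries, against 12.3 to 22.7 in WT, 10.4 to 14.7 in DKO_Ex and 46.8 to 103 in TKO_Ex. DKO_CD replicate 2 thus lay within the TKO_Ex range for Fam107b. It lay above that range for Celf1 (121 FPKM against 60.5 to 79.4) and Commd9 (25.4 against 12.6 to 18.3). All of these genes were chosen by their values and do not identify a library, and the identity of the library was not tested.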
